A study of Dugesia japonica with 18 samples.

Results

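In the planarian flatworm Dugesia japonica, 17 of 267235 assembled unigenes were described only by a match in the nr protein collection, had no SwissProt description, and stood out in the trunk at day 0. They were chosen by their measured values in 3 libraries: at least 5 CPM (counts scaled by library size) in the trunk at day 0, and at least 3 times the CPM of both the head and the tail at day 0, with head and tail values below 1 CPM set to 1. Matches with certain names (among them further Ast proteins, neuropeptides, prohormones, cathepsins and ferritins) and matches to ciliates were left out, which removed 6 unigenes that otherwise met the rule. A unigene is a cluster of assembled transcripts that stands in for a gene where no genome was used.

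The study sequenced poly(A)-selected RNA of trunk, head and tail pieces at days 0, 1, 3, 5, 7 and 10, with 1 library for each fragment and day and 18 libraries in all. Each library held the pooled pieces of 10 to 20 animals. The labels name no genotype, strain or treatment other than the cut, and do not say how day 0 relates to it. Pooling hides the spread between animals, and no fragment and day was sequenced more than once.

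Planarians rebuild missing body parts from a population of adult stem cells. The trunk holds the pharynx, a muscular feeding tube, and many gland cells that release digestive enzymes and other secreted proteins, while an amputated head or tail has to build a pharynx and its surroundings anew. SwissProt is a curated protein collection, while nr also takes in proteins predicted from genomes and known by no more than that.

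Library totals lay between 17547716 and 21229980 counts. One unigene took 13.0% to 49.6% of them, lowest in the head library of day 1 and highest in the tail libraries, so CPM were computed on totals without it (8841609 to 16455217 counts). On that scale 3 counts, taken here as the counting limit, were worth 0.182 to 0.339 CPM. This limit and the intervals below cover counting error only.

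At day 0, which the rule used and which is therefore given as a description, the ratio of trunk to head ran from 3.25 to 468 with a median of 10.9, and the ratio of trunk to tail ran from 3.23 to 468 with a median of 6.57. Just inside the limit on level were the P450 2B-like unigene at 5.20 CPM, DN55855_c0_g1 at 7.28 CPM and TRAF-2 at 8.18 CPM. Just below it were a glutathione S-transferase (DN80815_c0_g1) and an Ast5 protein (DN601_c0_g1), both at 4.71 CPM, and DN63833_c0_g1 at 4.23 CPM. Just inside the limit on fold were slc25a-1 at 3.23, DN55855_c0_g1 at 3.25 and DN16859_c0_g1 at 3.36, and just below it were DN10076_c0_g2 at 2.99, DN4627_c0_g1 at 2.93 and DN5788_c0_g1 at 2.87. (In the files every identifier carries the prefix TRINITY_.) "Trunk-restricted" therefore means a fold of 3 or more in single libraries: some members were absent from the other fragments, and others were plainly present there.

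The best nr match was a flatworm protein for 14 of the 17 members. Of these, 8 matched planarians, 3 the free-living flatworm Macrostomum lignano and 3 trematodes or tapeworms. The remaining matches were to a cone snail, a placozoan and an annelid. Every member carried at least 1 Gene Ontology (GO) term. The term "extracellular region" was on 3 members. Of the 23024 unigenes tested, 275 carried it, but only 7790 carried any term for a cellular component. A membrane term was on 3 members, calcium ion binding on 2 and metalloendopeptidase activity on 2, and their shares over all unigenes were not computed. Among groups formed by words in the nr name, protease inhibitors, signalling proteins and channels held 1 member each, 5 members came under names that give no function, and 9 members came under no group, among them DN96_c1_g1, whose nr name gives no function either. The other groups, among them proteases, lectins, mucins, transcription factors, cytoskeleton, mobile elements and toxin-like proteins, matched none. Names such as Ast1 or neuroD-2 do not spell the class out.

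Whether the day 0 pattern held in libraries the rule did not use was tested over days 1 to 10. All 17 members were higher in the trunk than in the head by edgeR's quasi-likelihood test over 15 libraries (adjusted p under 0.05), where 19.8% of all tested unigenes were. Against the tail, 14 of 17 were higher in the trunk, where 15.5% of all tested unigenes were, and these 14 were higher than in both. The median log2 difference of the members was 3.69 against the head and 3.17 against the tail, beside -0.002 and -0.004 for all tested unigenes. Every day's trunk value lay above every day's head value for 16 members (5.85% of all tested unigenes), and above every tail value for 15 (7.74%). The phospholipid scramblase overlapped with the head, and DN16859_c0_g1 and slc25a-1 overlapped with the tail. With 1 library per fragment and day, the error in this test is the departure of the libraries from a sum of a fragment effect and a day effect, not the spread between repeated samples. In pooled tissue, fewer cells of a kind and less RNA per cell cannot be told apart. Library totals without the most abundant unigene, in place of TMM scaling, move the median of all unigenes by -0.38 log2 for trunk minus head and -0.13 for trunk minus tail, and leave the counts at 17 and 14.

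**Figure D1:**
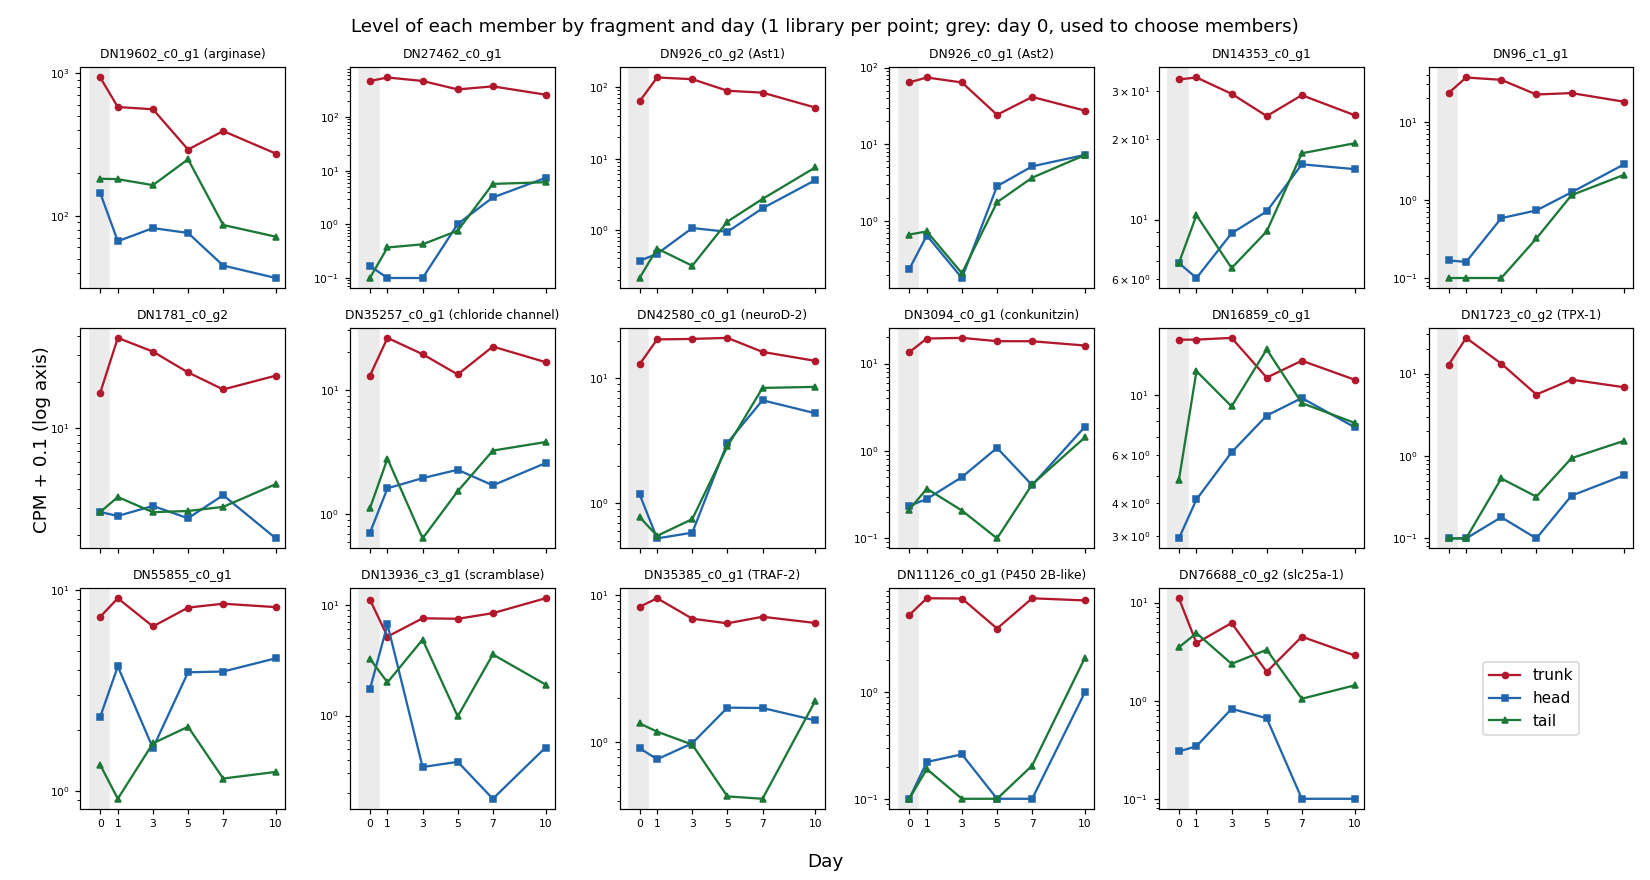
CPM + 0.1 on a log axis against day, 1 panel per member, with 1 library per point (trunk circles, head squares, tail triangles). Day 0, shaded, chose the members. The trunk line lies above both others throughout in most panels, and the head and tail lines climb towards it in panels such as Ast1, Ast2 and neuroD-2.

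**Figure D2:**
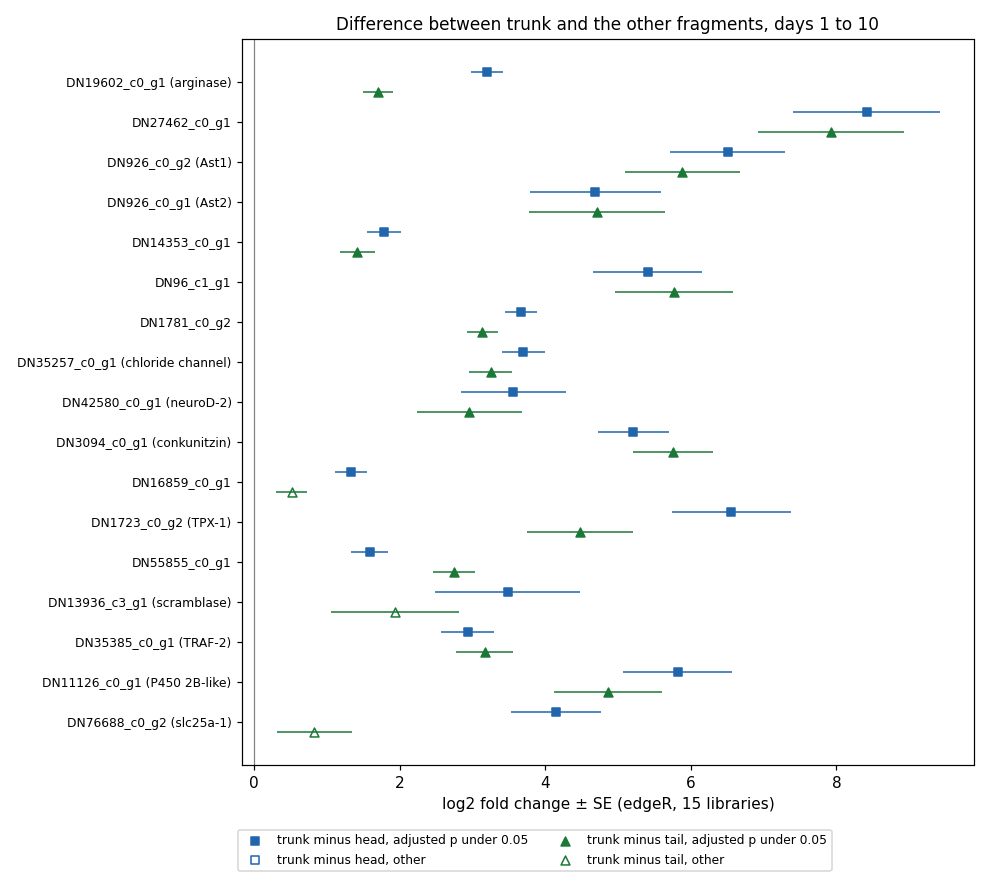
The log2 fold change of trunk over head (squares) and trunk over tail (triangles) with its SE for each member over days 1 to 10, with 15 libraries in the fit. Filled symbols have an adjusted p under 0.05, as for all 17 members against the head and 14 against the tail.

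The secreted and protease-related members held the 3 largest contrasts to the head, those of DN27462_c0_g1, TPX-1 and Ast1. Ast1 (DN926_c0_g2) and Ast2 (DN926_c0_g1), named after Schmidtea mediterranea proteins, carry the terms metalloendopeptidase activity and zinc ion binding, that is, enzymes that cut proteins with the help of a zinc ion. At days 0, 1, 3, 5, 7 and 10, Ast1 stood at 63.3, 137, 129, 89.0, 83.8 and 51.8 CPM in the trunk. It stood at 0.271, 0.365, 0.967, 0.844, 1.92 and 4.89 CPM in the head and at 0.113, 0.451, 0.216, 1.21, 2.63 and 7.42 CPM in the tail over the same days. The lowest trunk value was far above the highest value elsewhere, and the head and tail values were highest at day 10. The log2 difference over days 1 to 10 was 6.51 ± 0.79 (SE) against the head (adjusted p = 0.000269, edgeR) and 5.88 ± 0.79 against the tail (adjusted p = 0.000728). Ast2 followed the same days with 64.0, 74.2, 63.9, 24.1, 41.3 and 27.4 CPM in the trunk. Its head values were 0.136, 0.547, 0.0806, 2.74, 5.06 and 7.17 CPM and its tail values were 0.566, 0.631, 0.108, 1.66, 3.57 and 7.13 CPM. The groups did not overlap, and the head and tail values from day 5 on were all higher than those of days 0 to 3. Ast2 was higher in the trunk by 4.69 ± 0.90 log2 against the head (adjusted p = 0.00365, edgeR) and by 4.71 ± 0.94 against the tail (adjusted p = 0.00554), and the tail call was lost with no filter on low counts (adjusted p = 0.0524). Both come from 1 assembly component and may share reads, so they are not independent members.

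DN27462_c0_g1, an unnamed protein of the tapeworm Hymenolepis diminuta with the term extracellular region, was the second most abundant member and the most lopsided. It gave 468, 545, 469, 326, 372 and 261 CPM in the trunk at days 0 to 10. In the head it gave 0.0679, 0, 0, 0.914, 3.07 and 7.24 CPM, and in the tail 0, 0.27, 0.325, 0.662, 5.57 and 5.99 CPM. It was near the counting limit in both pieces up to day 3 and well above it at days 7 and 10, while the lowest trunk value stayed far above either. The log2 difference was 8.41 ± 1.01 against the head (adjusted p = 0.000284, edgeR) and 7.93 ± 1.0 against the tail (adjusted p = 0.000601). The size of such a fold depends on libraries with few or no counts.

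The conkunitzin unigene (DN3094_c0_g1) is named after a cone snail protein with a Kunitz fold, a compact domain known for blocking serine proteases, and carries the term serine-type endopeptidase inhibitor. Its trunk level was steady at 13.4, 19.2, 19.6, 17.9, 17.9 and 16.0 CPM. Head levels were 0.136, 0.182, 0.403, 0.985, 0.307 and 1.79 CPM and tail levels were 0.113, 0.27, 0.108, 0, 0.315 and 1.33 CPM. No head or tail library reached 2 CPM. The difference was 5.21 ± 0.49 log2 against the head (adjusted p = 1.52e-05, edgeR) and 5.75 ± 0.55 against the tail (adjusted p = 3.57e-05).

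TPX-1 (DN1723_c0_g2), whose namesake belongs to a family of cysteine-rich secreted proteins, had 12.6, 27.0, 13.1, 5.46, 8.33 and 6.71 CPM in the trunk. The head had 0, 0, 0.0806, 0, 0.23 and 0.482 CPM and the tail 0, 0, 0.433, 0.221, 0.84 and 1.43 CPM. No count was found in head or tail at days 0 and 1. At day 1 the 95% Poisson interval reached 0.2242 CPM in the head and 0.3325 CPM in the tail. The difference was 6.55 ± 0.82 log2 against the head (adjusted p = 0.000137, edgeR) and 4.47 ± 0.73 against the tail (adjusted p = 0.00111). DN1781_c0_g2, an unnamed protein of the trematode Echinostoma caproni with the term extracellular region, ranged over 17.7 to 38.6 CPM in the trunk at days 1 to 10, over 1.79 to 3.53 CPM in the head and over 2.71 to 4.18 CPM in the tail. Its head and tail levels were low but present at every day. It had the smallest adjusted p of the members against the head (2.03e-07, edgeR) at a log2 difference of 3.66 ± 0.22, and differed from the tail by 3.13 ± 0.22 (adjusted p = 1.14e-06).

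Among proteins that act inside cells to steer other genes or relay signals, neuroD-2 (DN42580_c0_g1) is named after a family of basic helix-loop-helix transcription factors that drive nerve cell differentiation in vertebrates. Its trunk levels were 12.9, 20.4, 20.6, 21.0, 16.2 and 13.7 CPM. Head levels were 1.09, 0.425, 0.484, 2.96, 6.59 and 5.17 CPM and tail levels were 0.679, 0.451, 0.649, 2.76, 8.30 and 8.46 CPM. Both pieces were at or below 1.09 CPM up to day 3 and above 5 CPM at days 7 and 10, and neither reached the lowest trunk value of days 1 to 10. NeuroD-2 was higher in the trunk by 3.56 ± 0.72 log2 than in the head (adjusted p = 0.00406, edgeR) and by 2.96 ± 0.72 than in the tail (adjusted p = 0.0134). Both calls were lost with no filter on low counts (adjusted p = 0.053 for the head and 0.149 for the tail), and the tail call without day 5 (adjusted p = 0.060). TRAF-2 (DN35385_c0_g1), named after an adaptor that couples tumour necrosis factor receptors to downstream kinases, held 6.30 to 9.36 CPM in the trunk at days 1 to 10, 0.668 to 1.62 CPM in the head and 0.315 to 1.81 CPM in the tail. The log2 differences were 2.94 ± 0.36 and 3.17 ± 0.39, with adjusted p = 3.07e-05 against the head and 6.01e-05 against the tail (edgeR).

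Of the membrane and transport members, DN96_c1_g1, a predicted protein of the annelid Dimorphilus gyrociliatus with a membrane term, had 23.2, 36.8, 34.3, 22.2, 23.2 and 17.9 CPM in the trunk. It had 0.0679, 0.0608, 0.484, 0.633, 1.15 and 2.76 CPM in the head and 0, 0, 0, 0.221, 1.05 and 2.0 CPM in the tail. The tail libraries of days 0, 1 and 3 held no count, and both pieces were highest at day 10. The difference was 5.40 ± 0.75 log2 against the head (adjusted p = 0.000431, edgeR) and 5.77 ± 0.81 against the tail (adjusted p = 0.000743). The epithelial chloride channel unigene (DN35257_c0_g1), named after a protein family linked to chloride flow across epithelia in mammals, ranged over 13.2 to 26.0 CPM in the trunk, 1.52 to 2.48 CPM in the head and 0.541 to 3.71 CPM in the tail at days 1 to 10. It was higher in the trunk by 3.69 ± 0.30 log2 than in the head (adjusted p = 2.08e-06, edgeR) and by 3.25 ± 0.30 than in the tail (adjusted p = 1.17e-05).

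The phospholipid scramblase (DN13936_c3_g1), an enzyme class that moves lipids between the leaflets of a membrane, had 11.1, 5.08, 7.47, 7.39, 8.33 and 11.4 CPM in the trunk. It had 1.63, 6.56, 0.242, 0.281, 0.0767 and 0.414 CPM in the head and 3.17, 1.89, 4.76, 0.882, 3.47 and 1.81 CPM in the tail. The head library of day 1, at 6.56 CPM (95% Poisson interval 5.38 to 7.92), lay above the trunk library of the same day, and the later head libraries held at most 0.414 CPM. The difference was 3.48 ± 0.99 log2 against the head (adjusted p = 0.0228, edgeR) and 1.93 ± 0.88 against the tail, which did not pass (adjusted p = 0.131). The head call was lost when day 3, 5, 7 or 10 was left out (adjusted p from 0.0622 to 0.0992) and with no filter on low counts (adjusted p = 0.224). Without the head day 1 library, the head difference was 5.39 log2 (adjusted p = 1.04e-05, edgeR) and the tail comparison passed at 1.81 log2 (adjusted p = 0.00168). The mitochondrial carrier slc25a-1 (DN76688_c0_g2), with an ATP:ADP exchange term, had 10.9, 3.76, 6.09, 1.86, 4.39 and 2.79 CPM in the trunk. The head had 0.204, 0.243, 0.726, 0.563, 0 and 0 CPM and the tail 3.39, 4.78, 2.27, 3.20, 0.945 and 1.33 CPM. It was lower in every head library than in any trunk library, but the tail exceeded the trunk at days 1 and 5. It differed by 4.15 ± 0.62 log2 from the head (adjusted p = 0.000196, edgeR), while 0.82 ± 0.52 against the tail did not pass (adjusted p = 0.253).

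Arginase (DN19602_c0_g1), which splits arginine into ornithine and urea, was the most abundant member, named after the enzyme of the liver fluke Fasciola hepatica. It had 936, 581, 560.4, 292, 394 and 274 CPM in the trunk at days 0 to 10. It had 144, 66.3, 82.0, 75.8, 44.7 and 36.5 CPM in the head and 182, 181, 164, 249.6, 86.2 and 71.3 CPM in the tail. Arginase was abundant in every fragment, with tail above head at each day, and the lowest trunk value exceeded the highest tail value narrowly. The log2 difference was 3.19 ± 0.22 against the head (adjusted p = 2.81e-06, edgeR) and 1.70 ± 0.21 against the tail (adjusted p = 0.000178). The P450 2B-like unigene (DN11126_c0_g1), of the heme enzymes that insert oxygen into small molecules, had 5.20, 7.51, 7.47, 3.86, 7.51 and 7.17 CPM in the trunk. The head had 0, 0.121, 0.161, 0, 0 and 0.896 CPM and the tail 0, 0.0901, 0, 0, 0.105 and 2.0 CPM. Both were at or near 0 up to day 7. The difference was 5.82 ± 0.75 log2 against the head (adjusted p = 9.97e-05, edgeR) and 4.87 ± 0.74 against the tail (adjusted p = 0.000521).

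The 3 members with the smallest contrasts to the head all matched hypothetical proteins of Macrostomum lignano. DN14353_c0_g1, with the terms calcium ion binding and dynein complex, ranged over 24.2 to 33.7 CPM in the trunk, 5.96 to 15.9 CPM in the head and 6.50 to 19.1 CPM in the tail at days 1 to 10, and was higher in the trunk by 1.78 ± 0.24 and 1.42 ± 0.24 log2 (adjusted p = 9.66e-05 for the head and 0.000808 for the tail, edgeR). DN16859_c0_g1, also with a calcium binding term, ranged over 11.3 to 16.2 CPM in the trunk, 4.01 to 9.66 CPM in the head and 7.80 to 14.7 CPM in the tail. It was higher than in the head by 1.33 ± 0.22 log2 (adjusted p = 0.000333, edgeR), whereas 0.51 ± 0.22 against the tail did not pass (adjusted p = 0.0925). Without the head day 1 library that comparison passed at 0.52 (adjusted p = 0.0287, edgeR). DN55855_c0_g1, with a glutathione transferase term, ranged over 6.50 to 9.03 CPM in the trunk, 1.53 to 4.48 CPM in the head and 0.811 to 1.99 CPM in the tail. It was the 1 member of the 3 that differed more from the tail (2.74 ± 0.29 log2, adjusted p = 1.96e-05) than from the head (1.59 ± 0.25, adjusted p = 0.000221, edgeR), a contrast between head and tail that was not tested.

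How the members moved with time was measured as the slope of log2 level over log2 of the day within each fragment, that is, the log2 change for each doubling of the day from day 1 to day 10. In the head, 4 members rose, DN27462_c0_g1, Ast1, DN96_c1_g1 and neuroD-2, where 0.704% of all tested unigenes did. In the tail, the same 4 and TPX-1 rose, 5 in all, where 2.42% of all tested unigenes did. In the head the scramblase fell (0.986% of unigenes fell), and in the tail no member fell, against 0.886% of all unigenes, with 0 at an unadjusted p under 0.05 and 0 by DESeq2. The rule chose members low in head and tail at day 0, where 6 members in each held under 3 counts. Such members have more room to rise there than to fall, so the shares of all unigenes are not an equal yardstick. In the trunk no member rose (0.0521% of unigenes did; 0 at an unadjusted p under 0.05 and 0 by DESeq2). None fell in the trunk by edgeR (0.013% of unigenes did), with 5 at an unadjusted p under 0.05 and 1, TPX-1, by DESeq2. The sign of the trunk slope was negative for 16 of 17 members, with a median of -0.15, beside 0.002 over all tested unigenes.

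DN27462_c0_g1 had the steepest rise in the head, by 3.26 ± 0.38 log2 per doubling of the day (adjusted p = 0.000971, edgeR), and rose in the tail by 1.81 ± 0.30 (adjusted p = 0.00523). DN96_c1_g1 rose by 1.55 ± 0.19 in the head (adjusted p = 0.000862, edgeR) and by 2.93 ± 0.36 in the tail (adjusted p = 0.000373). In both unigenes the first libraries hold few or no counts, so the size of the slope is poorly fixed. NeuroD-2 rose by 1.34 ± 0.25 in the head (adjusted p = 0.0145, edgeR) and by 1.51 ± 0.26 in the tail (adjusted p = 0.00554). Ast1 rose by 1.18 ± 0.27 in the head (adjusted p = 0.0455, edgeR) and by 1.63 ± 0.31 in the tail (adjusted p = 0.0118). Its neighbour Ast2 had slopes of 1.40 ± 0.34 and 1.35 ± 0.39 that did not pass (adjusted p = 0.0694 in the head and 0.0919 in the tail). TPX-1 rose by 1.43 ± 0.36 in the tail (adjusted p = 0.0415, edgeR), and its head slope of 1.89 ± 0.54 did not pass (adjusted p = 0.105). No head library held more than 7 counts of TPX-1 and no tail library more than 15. Its tail call was lost under 5 of 12 alternatives. TPX-1 and DN96_c1_g1 would not have passed the filter on low counts by their head and tail libraries alone. Nor would the conkunitzin and P450 2B-like unigenes.

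The calls on slopes lean on single libraries and days. Without the head library of day 1, 1 member, DN27462_c0_g1, still rose in the head, while Ast1 had a slope of 1.57 (adjusted p = 0.582), DN96_c1_g1 of 1.57 (adjusted p = 0.0755) and neuroD-2 of 1.74 (adjusted p = 0.40, edgeR), so the slopes were as large and their calls were lost. The scramblase's head slope of -1.65 ± 0.29 log2 per doubling (adjusted p = 0.012) rests on that library: without it the slope was 0.27. TPX-1 in the tail also lost its call without it, at a slope of 1.43 and an adjusted p of 0.0557. With a whole day left out of all fragments, the members rising in the head numbered 1 without day 1, 2 without day 7 and 2 without day 10, and those rising in the tail 8 without day 1, 3 without day 7 and 1 without day 10.

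**Figure D3:**
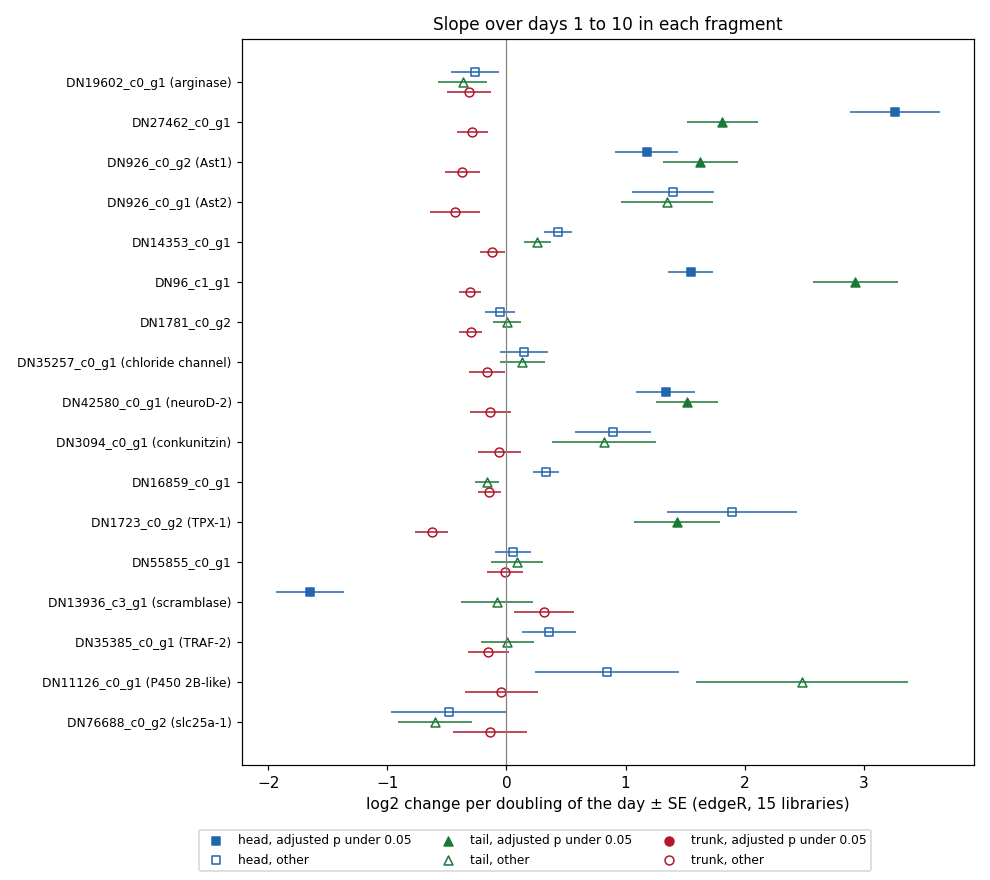
Slope in log2 change per doubling of the day, with its SE, for each member in head (squares), tail (triangles) and trunk (circles) over days 1 to 10. Filled symbols have an adjusted p under 0.05. The 4 members filled to the right in the head are also filled in the tail, and no trunk slope is filled.

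A slope that passes in one fragment and not in another need not differ from it, so the difference was tested itself. The slope was larger in the head than in the trunk for 4 members (0.36% of all tested unigenes) and larger in the tail than in the trunk for 5 (0.382%). Members were chosen low in head and tail and high in the trunk at day 0, so these shares are not an equal yardstick either. DN96_c1_g1, and TPX-1 in the tail list, passed the filter on low counts only with their trunk libraries. The head members were DN27462_c0_g1, at a difference of 3.55 ± 0.41, DN96_c1_g1 at 1.85 ± 0.21, Ast1 at 1.55 ± 0.30 and neuroD-2 at 1.47 ± 0.30. Their adjusted p were 0.000866, 0.000368, 0.0436 and 0.0484 in the same order (edgeR). Without the head day 1 library 2 of the differences between head and trunk passed, and without day 10 none did, with 1 left between tail and trunk. The neuroD-2 call between head and trunk was lost under 8 of 12 alternatives, among them DESeq2 size factors (adjusted p = 0.0504) and each single day left out, and that of Ast1 under 6 of 12. The same 4 and TPX-1 made up the tail list. Both lists share the trunk libraries.

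By day, the median ratio of trunk to head over the members, with values below 1 CPM set to 1, was 10.9 at day 0, 15.1 at day 1, 10.4 at day 3, 6.04 at day 5, 8.17 at day 7 and 6.69 at day 10. The median ratio of trunk to tail was 6.57, 9.63, 11.6, 7.39, 7.03 and 4.47 over the same days. Members at least 10 times higher in the trunk than in the head numbered 9, 9, 9, 4, 5 and 4 from day 0 to day 10, and against the tail 8, 8, 9, 5, 5 and 2. At least 3 times higher than the head were 17, 15, 16, 13, 13 and 12 members, and than the tail 17, 14, 14, 13, 13 and 13. So 12 members in the head and 13 in the tail met the rule's fold again at day 10, while 2.31% and 3.01% of all tested unigenes had such a ratio that day. Head libraries held 2, 2, 1, 2, 2 and 1 members with no count and tail libraries 4, 2, 2, 2, 0 and 0, and no trunk library held any.

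**Figure D4:**
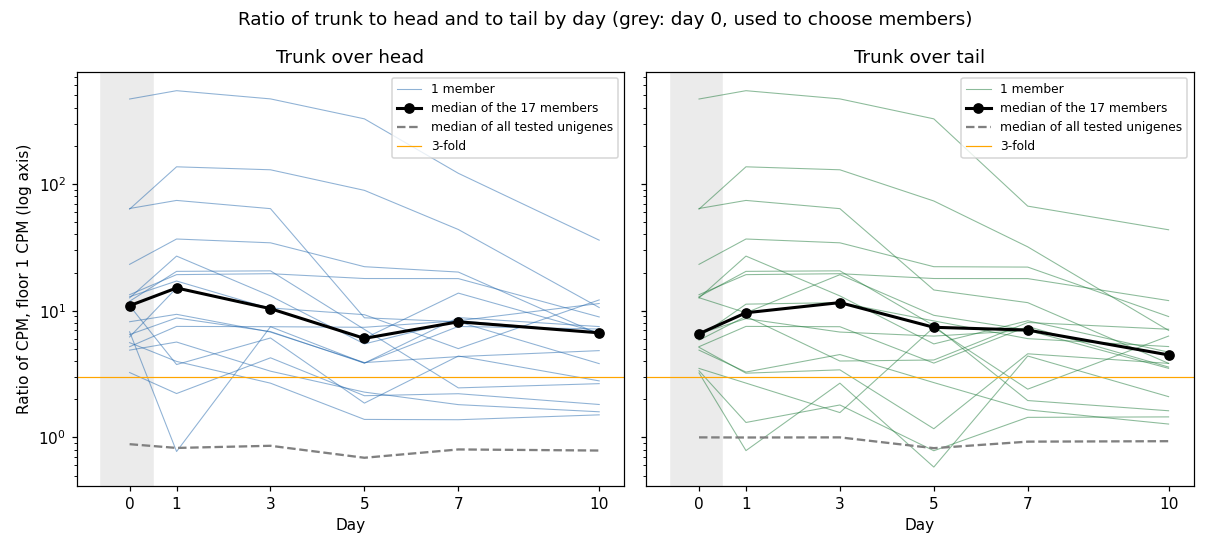
Ratio of CPM in trunk to head (left) and trunk to tail (right) by day on a log axis, thin lines for single members and the black line for their median, with values below 1 CPM set to 1. The median over the members is 6.69 for the head and 4.47 for the tail at day 10. The dashed median of all tested unigenes runs from 0.69 to 0.88 for the head and from 0.82 to 1.0 for the tail.

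Summed over the 17 members, CPM came to 1716, 1589, 1441, 898, 1075 and 778 in the trunk from day 0 to day 10. The head sums were 164, 93.6, 108, 115, 99.3 and 100.2, and the tail sums 208, 220.2, 194, 290.5, 147 and 148. Arginase and DN27462_c0_g1 made up most of the trunk sum. Without them the trunk sums were 311, 463, 411, 279, 309 and 244, the head sums 19.5, 27.3, 25.7, 38.0, 51.5 and 56.5, and the tail sums 25.8, 39.0, 29.8, 40.3, 55.5 and 70.7. The sums without them were highest in head and tail at day 10, and the lowest trunk sum of days 1 to 10 was also at day 10.

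Beside these rises, the unigene with the SwissProt name Silk gland factor 1, a relative of the FoxA transcription factors that planarians use in the pharynx, moved as well. It had 17.5, 24.6, 20.2, 14.7, 19.6 and 21.5 CPM in the trunk from day 0 to day 10. The head had 0.543, 1.70, 6.37, 20.8, 16.5 and 15.6 CPM and the tail 0.339, 2.07, 6.82, 11.7, 14.7 and 11.5 CPM. It rose by 1.03 ± 0.19 log2 per doubling of the day in the head (adjusted p = 0.013, edgeR) and by 0.76 ± 0.19 in the tail (adjusted p = 0.0401), against a slope of -0.09 ± 0.14 in the trunk. Over days 1 to 10 its trunk minus head difference of 1.47 ± 0.52 log2 did not pass (adjusted p = 0.0536, edgeR). Nor did its trunk minus tail difference of 1.54 ± 0.52 (adjusted p = 0.052). At day 10 it had 15.6 CPM in the head and 11.5 CPM in the tail against 21.5 CPM in the trunk. Ast1, TPX-1 and DN27462_c0_g1 were far below their trunk values at day 10. Other members were nearer to the trunk that day. The ratio of trunk to head was 2.655 for neuroD-2 and 1.592 for DN14353_c0_g1. Their ratios of trunk to tail were 1.622 and 1.274. The 5 SwissProt-named unigenes of a list for trunk glands and secreted proteases summed to 558 to 1080 CPM in the trunk at days 1 to 10, 158 to 762 CPM in the head and 198 to 313 CPM in the tail. Of these 5, 3 were higher in the trunk than in the head and 4 higher than in the tail, and 2 rose in the head and 3 in the tail, while 2 fell in the head. Intestine markers (66 unigenes, 61 tested) summed to 6890 to 8780 CPM in the trunk, 5370 to 8240 CPM in the head and 3520 to 4390 CPM in the tail, with 20 higher and 11 lower in the trunk than in the head and 29 higher and 7 lower than in the tail. No intestine marker rose in head or tail, and 6 fell in the head and 2 in the tail. Muscle markers summed to 15600 to 19000 CPM in the trunk, 11500 to 14000 CPM in the head and 19600 to 23500 CPM in the tail. Of 24 tested, 15 were higher and 0 lower in the trunk than in the head, and 6 higher and 5 lower than in the tail. Neuron markers summed to 926 to 1280, 3060 to 3200 and 1390 to 2250 CPM in trunk, head and tail, and eye markers to 58.8 to 84.5, 289 to 447 and 55.2 to 106 CPM. Of 24 tested neuron markers, 7 were higher and 12 lower in the trunk than in the head, and 2 higher and 9 lower than in the tail. Of 9 tested eye markers, 0 were higher and 5 lower in the trunk than in the head, and none differed from the tail by this test. In the tail, 7 of 24 tested neuron markers and 2 of 9 tested eye markers rose, and in the head 2 of 24 tested muscle markers rose. Over all tested unigenes, 19.8% were higher in the trunk than in the head and 15.5% higher than in the tail. In the head 0.704% of them rose and 0.986% fell, and in the tail 2.42% rose and 0.886% fell. The part of these cell types in the members' differences was not tested.

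Some members shared their nr match with other unigenes. These were found by the match, but the pairs described here were picked after their values were seen. The P450 2B-like entry was the match of 19 other unigenes, of which 17 were tested. Of these 12 (70.6%) were higher in the trunk than in the head, 9 (52.9%) higher and 1 lower than in the tail, and 6 higher than in both, where 19.8% and 15.5% of all tested unigenes were higher than in the head and in the tail. The TRAF-2 entry was the match of 99 other unigenes, and of 75 tested, 15 (20.0%) were higher and 5 lower in the trunk than in the head, 10 (13.3%) higher and 10 lower than in the tail, and 4 higher than in both. The TRAF-2 shares are near those of all tested unigenes. The other tested scramblase (DN73_c6_g1) averaged 28.3 CPM in the trunk, 9.51 in the head and 18.9 in the tail. It was higher than in the head by 2.06 log2 (adjusted p = 0.00198, edgeR), and 0.71 against the tail did not pass (adjusted p = 0.173).

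A second TPX-1 unigene of the same assembly component, DN1723_c0_g1, had 76.6, 36.7, 53.3, 37.5, 49.5 and 73.8 CPM in the trunk from day 0 to day 10. It had 115, 101, 53.6, 121, 60.0 and 50.2 CPM in the head and 80.9, 28.9, 63.5, 116, 89.3 and 36.7 CPM in the tail. The fragments overlapped, and neither difference passed (adjusted p = 0.762 for the head and 0.806 for the tail, edgeR). The neighbour of DN1781_c0_g2, DN1781_c0_g1, has no annotation and had 349, 476, 419.6, 403, 324 and 263 CPM in the trunk. It had 0.204, 0.304, 0, 0.352, 1.15 and 4.34 CPM in the head and 0, 0.811, 5.41, 0.221, 2.73 and 10.4 CPM in the tail, so the neighbour was both more abundant and more lopsided than the member. The second chloride channel unigene, DN35257_c0_g2, was at 0 in some libraries of every fragment and had 0, 0, 0, 5.72, 0.0743 and 9.50 CPM in the trunk from day 0 to day 10, against up to 2.26 CPM in the head and 5.46 CPM in the tail, with no steady order of the fragments. The component neighbour of slc25a-1, DN76688_c0_g1, had a trunk minus head difference of -1.759 log2 (adjusted p = 0.0466, edgeR). Against the tail, -1.632 did not pass (adjusted p = 0.0848). The P450 neighbour DN11126_c0_g2 differed by 0.718 log2 from the head (adjusted p = 0.0119, edgeR) and by -0.659 from the tail (adjusted p = 0.0199). Unigenes of 1 component can be parts or near-copies of 1 gene between which the counting may have divided reads, so the exact split within a pair is uncertain.

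**Figure D5:**
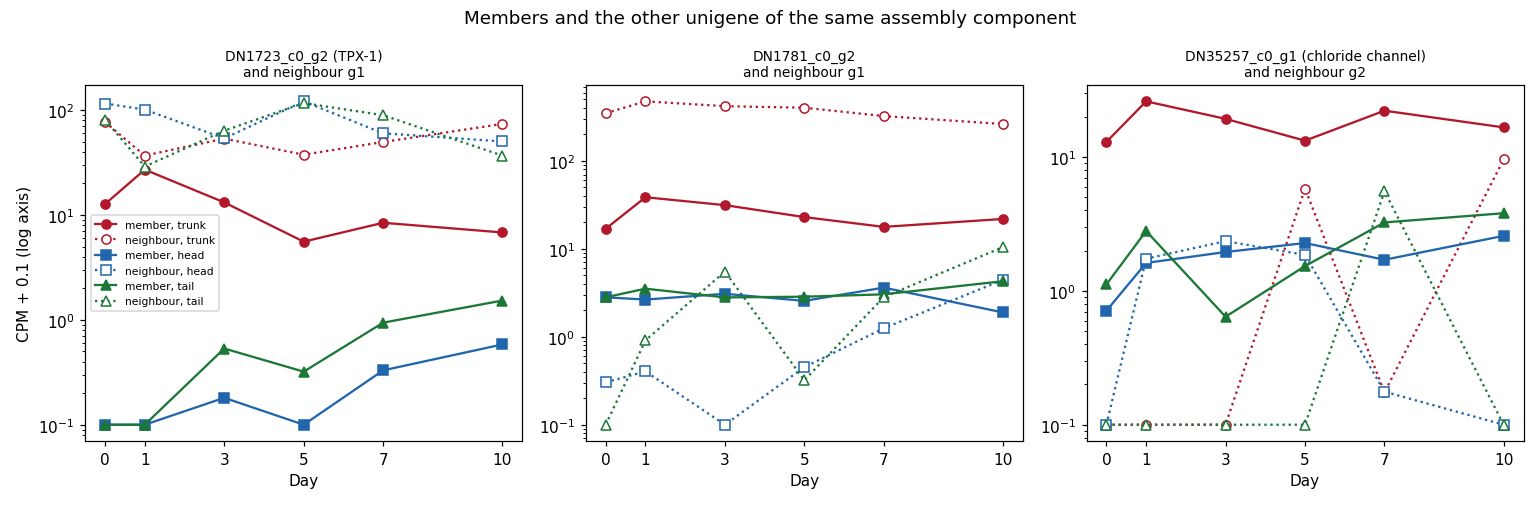
CPM + 0.1 on a log axis against day for 3 members (filled symbols, solid lines) and the other unigene of their assembly component (open symbols, dotted lines), trunk circles, head squares, tail triangles. The TPX-1 neighbour is at 28.9 to 121 CPM with all fragments mixed, the DN1781 neighbour is at 263 to 476 CPM in the trunk, and the chloride channel neighbour is scattered.

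The same tests were read for the other unigenes that met the limits at day 0. Of 42 with a SwissProt name, 37 were higher in the trunk than in the head over days 1 to 10 and 32 higher than in the tail, with 9 rising in the head and 12 in the tail. Of 137 with no annotation at all, 126 and 113 were higher, and 48 rose in the head and 54 in the tail. Over all tested unigenes 19.8% and 15.5% were higher, and 0.704% rose in the head and 2.42% in the tail. Both sets were also chosen low in head and tail at day 0, so these shares are not an equal yardstick for the rises. The median slope of the members was 0.43 in the head and 0.26 in the tail, beside 0.27 and 0.46 for the SwissProt-named set and 0.85 and 1.196 for the set with no annotation. Whether the 3 sets differ was not tested. With head or tail in the place of the trunk, the whole rule found 74 head and 4 tail unigenes, against 17 for the trunk. The fold and level limits alone found 202 for the trunk, whatever their annotation.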

How the data were processed

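The deposited table holds whole-number counts per unigene for 18 libraries; per the submitters' processing notes the tools named are FastQC, fastp 0.20.0, Bowtie2 and RSEM, with no roles given, and sources used here give no version of the assembly. The authors' log-scale columns were not used. Samples were grouped by the labelled fragment and day. Members and marker lists were chosen with earlier results of these data known. CPM used library totals without the most abundant unigene.

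Tests left out day 0. On the deposited counts, edgeR 4.0.16 (R 4.3.3) with TMM factors and a robust quasi-likelihood fit was run on the 23024 unigenes that reached 1 CPM in 3 or more of 15 libraries. One model had fragment and day as factors (8 residual degrees of freedom), the other a slope over log2 of the day within each fragment (9). Benjamini-Hochberg adjustment ran over all tested unigenes at a threshold of 0.05, and a standard error is the log2 change over the square root of F. Alternatives were DESeq2 1.42.0, other scalings and filters, single days left out, the head library of day 1 left out, and late against early days. The fit was tested on simulated data. All members are named.
Intervals are exact Poisson at 95%. With no repeated libraries, p-values measure departures from the models. No sequence of the unigenes was used here.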

Additional observations from a re-analysis of the deposited data

Results flagged for a closer look

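Several slopes differed between fragments by the test of the difference itself, in log2 per doubling of the day over days 1 to 10. Between head and trunk the differences were 3.55 for DN27462_c0_g1, 1.55 for Ast1 (DN926_c0_g2), 1.85 for DN96_c1_g1 and 1.47 for neuroD-2 (DN42580_c0_g1). Between tail and trunk they were 2.10 for DN27462_c0_g1, 1.998 for Ast1, 3.23 for DN96_c1_g1, 1.65 for neuroD-2 and 2.06 for TPX-1 (DN1723_c0_g2). Of 12 alternatives, the call between head and trunk was lost under 2 for DN27462_c0_g1, 6 for Ast1, 2 for DN96_c1_g1 and 8 for neuroD-2, and that between tail and trunk under 5 for DN27462_c0_g1, 5 for Ast1, 1 for DN96_c1_g1, 6 for neuroD-2 and 4 for TPX-1. All differences are positive, that is, larger in head or tail than in the trunk. Members chosen low in head and tail at day 0 have more room for that sign. Silk gland factor 1 moved beside them, at a head minus trunk difference of 1.12 (adjusted p = 0.0489, edgeR) and a tail minus trunk difference of 0.85 that did not pass (adjusted p = 0.23).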

How the results depend on the processing

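The counts of members higher in the trunk over days 1 to 10 were 16 to 17 against the head and 13 to 15 against the tail when single days were left out. With no filter on low counts they were 15 and 13, and without the head library of day 1 they were 17 and 16. The counts of slopes depended more on the settings. When single days were left out, members rising in the head numbered 1 to 5 (4 with all days), falling in the head 0 to 1, rising in the tail 1 to 8 (5 with all days), slopes differing between head and trunk (either sign) 0 to 5, and between tail and trunk 1 to 3. Without the head library of day 1 these counts were 1 rising in the head, 0 falling in the head and 2 differing between head and trunk. With late days set against early days in place of a slope they were 1 rising in the head, 0 falling in the head, 1 rising in the tail, 0 differing between head and trunk and 0 between tail and trunk. Without a filter on low counts, 8 slopes differed between head and trunk, and 1 member fell in the trunk, as 1 did with the DESeq2 test. The scramblase's slope in the head turned positive without the head library of day 1 (0.27), and ran from -2.23 to 0.27 with single days left out, positive without day 1. The cause of these changes, and of the scramblase's high value in the head library of day 1, was not tested. Library totals with the most abundant unigene would have chosen 29 members and a fold of 2 would have chosen 42. Day was a factor in the test of levels, so fragments were compared within days. Depth limits the early head and tail values of the members near 0, where 3 counts are worth up to 0.339 CPM.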
